A study of Mus musculus with 6 samples.

Results

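Collagen chains other than those of cartilage were followed in mesenchymal stromal cells (MSC) of mouse lung. Members were all rows of the deposited gene table whose symbol is a collagen chain, apart from Col2a1, Col9a1, Col9a2, Col9a3, Col10a1, Col11a1, Col11a2 and Col27a1. This left 31 of 20645 genes. They comprised 7 fibrillar chains, 6 FACIT chains (fibril-associated collagens with interrupted triple helices), 8 network chains, 2 transmembrane chains and 8 chains outside these classes, and 28 of the 31 passed the filter on low counts.

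The study measured RNA in 6 libraries of lung MSC from C57BL/6 mice, 3 of cells with membrane-bound TdTomato (mT) and 3 of cells with membrane-bound green fluorescent protein (mG). Every mouse had the genotype Tbx4-rtTA/TetO-Cre/mT-mG and received doxycycline from embryonic day 6.5 to postnatal day 1. In this system doxycycline switches on Cre where the Tbx4 driver is active, and Cre changes the reporter from red to green, so green cells and their descendants had driver activity in that window, while red cells include any in which recombination failed. Lungs were dissociated with dispase, collagenase and DNAse into a serum-containing MSC medium before flow cytometry, and the labels name each group by its reporter. The sources used here give neither the age at isolation nor whether replicates were separate animals. The p-values therefore reflect spread among these libraries, part of which may be technical.

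Libraries held 16853561 to 19429138 counts, and 1 of them stood apart. In mG replicate 2 the 8 cartilage collagens left out of the members summed to 4213 CPM (counts scaled by library total and TMM factor), against 1621 and 1881 CPM in the other mG libraries and 415 to 892 CPM in mT. Outside mG replicate 2 nearly all of each sum was Col11a1. This gene had 1615 and 1861 CPM in the other mG libraries and 381 to 844 CPM in mT. In mG replicate 2 Col2a1 had 2714 CPM and Col11a1 1433 CPM. Of 8 chondrocyte markers 5 were found, summing to 950 CPM in mG replicate 2 and to 4.54 to 77.3 CPM elsewhere. Most of the 950 CPM was Comp (742 CPM), and Sox9 had 145 CPM there. Of 7 fibroblast markers all were found, with sums of 10271 to 12160 CPM in mT and 14060 to 20397 CPM in mG. The higher sums in mG came from Fn1 (2543 to 6562 CPM in mT and 9302 to 14599 CPM in mG), whereas Thy1 (343 to 751 against 135 to 302 CPM) was lower in mG without overlap and Vim and Pdgfra overlapped. Of 8 leukocyte markers 6 were found, with sums of 12.2 to 18.9 CPM in mT and 9.2 to 14.8 CPM in mG. Among them Ptprc had 0 to 6 counts per library, Lyz2 9.11 to 15.7 CPM in mT and 1.31 to 5.65 CPM in mG, and Csf1r 0.897 to 2.09 CPM in mT and 6.37 to 9.22 CPM in mG. Pericyte markers (5 of 6 found) summed to 248 to 360 CPM in mT and 150 to 285 CPM in mG, adventitial fibroblast markers (5 of 6) to 285 to 334 and 148 to 281 CPM, and alveolar fibroblast markers (4 of 5) to 71.9 to 232 and 53.2 to 389 CPM. Single markers in these lists went in both directions. The alveolar marker Tcf21 was higher in mG without overlap (0 to 0.838 CPM in mT and 3.3 to 18.8 CPM in mG). Lower in mG without overlap were Limch1 (49.5 to 199 against 18.1 to 30.6 CPM) and Trpc6 (8.35 to 23.7 against 0.118 to 0.545 CPM). So were Notch3 (73 to 153 against 19.8 to 69.3 CPM) and Ly6c1 (19.8 to 41.6 against 1.53 to 18.9 CPM). The other markers found in these lists overlapped. None of the 6 epithelial markers listed was found among the rows read here, so epithelial content could not be judged from them. Among all genes, 124 of 13560 (0.914%) were called at a Benjamini-Hochberg adjusted p below 0.05 by edgeR's quasi-likelihood test. Of these 27 (0.199%) were higher in mG and 97 (0.715%) lower.

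Collagen molecules are trimers of alpha chains wound into a triple helix. Fibrillar chains build the tensile fibrils of the interstitium, FACIT chains decorate fibril surfaces, type IV chains form the sheet of basement membranes, and type VIII chains form hexagonal lattices. In the lung fibroblasts make most fibrillar collagen, and the basement membrane lies between the alveolar epithelium, the capillaries and the stroma.

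Type IV genes are arranged in head-to-head pairs, and the stretches around their starts are shown because they set beside each other the chains whose counts are compared as ratios further on. RefSeq (GRCm38.p6) promoter entries matched 25 of the 31 members. The starts of Col4a1 and Col4a2 overlap by 22 bases on chromosome 8, drawn as capitals in chr8:11312797-11312834 (plus strand, on which Col4a2 is read). Between the starts of Col4a4 (RefSeq) and Col4a3 (GENCODE M21) lie 71 bases, chr1:82586850-82586920 (plus strand, on which Col4a3 is read), and between those of Col4a5 and Col4a6 1342 bases. By contrast the type VIII genes lie on chromosomes 16 and 4, and the 250 bases before each start are chr16:57754738-57754987 (minus strand) for Col8a1 and chr4:126286544-126286793 (plus strand) for Col8a2. In the last 3 sequences capitals mark any match, on either strand, to the CCAAT box, to the TATA box in the form TATAAA, or to the core of the Sp1 box, GGGCGG, with overlapping matches joined.
Col4a2 and Col4a1 starts: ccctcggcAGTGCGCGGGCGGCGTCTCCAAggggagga
Col4a4 to Col4a3: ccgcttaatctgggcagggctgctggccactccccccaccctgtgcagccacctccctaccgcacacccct
Col8a1 promoter: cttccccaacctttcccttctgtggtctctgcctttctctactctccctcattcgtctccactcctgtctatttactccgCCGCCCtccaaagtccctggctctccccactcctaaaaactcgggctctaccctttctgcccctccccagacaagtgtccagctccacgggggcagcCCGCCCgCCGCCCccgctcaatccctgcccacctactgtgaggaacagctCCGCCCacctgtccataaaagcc
Col8a2 promoter: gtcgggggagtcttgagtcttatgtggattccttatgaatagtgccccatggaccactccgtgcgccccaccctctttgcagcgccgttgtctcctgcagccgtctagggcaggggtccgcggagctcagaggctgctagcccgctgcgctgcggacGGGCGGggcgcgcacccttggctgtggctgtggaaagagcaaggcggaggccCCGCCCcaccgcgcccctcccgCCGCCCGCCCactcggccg

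GGGCGG occurred 4 times in each type VIII promoter and was the only motif of the 3 found there. It was present in 14 of the 25 members with an entry and in 32.7% of all 32851 promoters of that table over the same 250 bases. CCAAT was present in 10 of the 25 members and 33.8% of promoters, and TATAAA in 2, Col3a1 and Col17a1, against 12.4% of promoters.

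Of the 28 tested members 1 passed, Col12a1, which fell in mG, where 0.914% of all genes passed. At an unadjusted p below 0.05 there were 4 higher and 4 lower members, a level reached by 14.6% of all genes (7.7% higher and 6.88% lower). Values did not overlap between the groups in 6 of the 28, namely Col14a1 and Col19a1 (higher in mG) and Col12a1, Col16a1, Col8a2 and Col6a3 (lower), and in 20.8% of all genes tested (9.97% higher and 10.8% lower). The median log2 fold change was 0.09 over the 28 members and 0.02 over all genes, with 15 members fitted above 0 and 13 below. The median size of the fold change, regardless of direction, was 0.84 among members and 0.24 over all genes. With the replicate number as a block 108 genes passed (0.796%), and the only member among them was Col16a1, lower in mG. DESeq2 called 7.31% of genes and 5 members, Col14a1 and Col28a1 as higher and Col12a1, Col16a1 and Col6a3 as lower. With 1 factor of unwanted variation 3.56% of genes were called, and 2.62% were without mG replicate 2, and in each case the members called were Col12a1 and Col8a2. Without both replicate 2 libraries (0.338% of genes) no member was called.

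**Figure D1:**
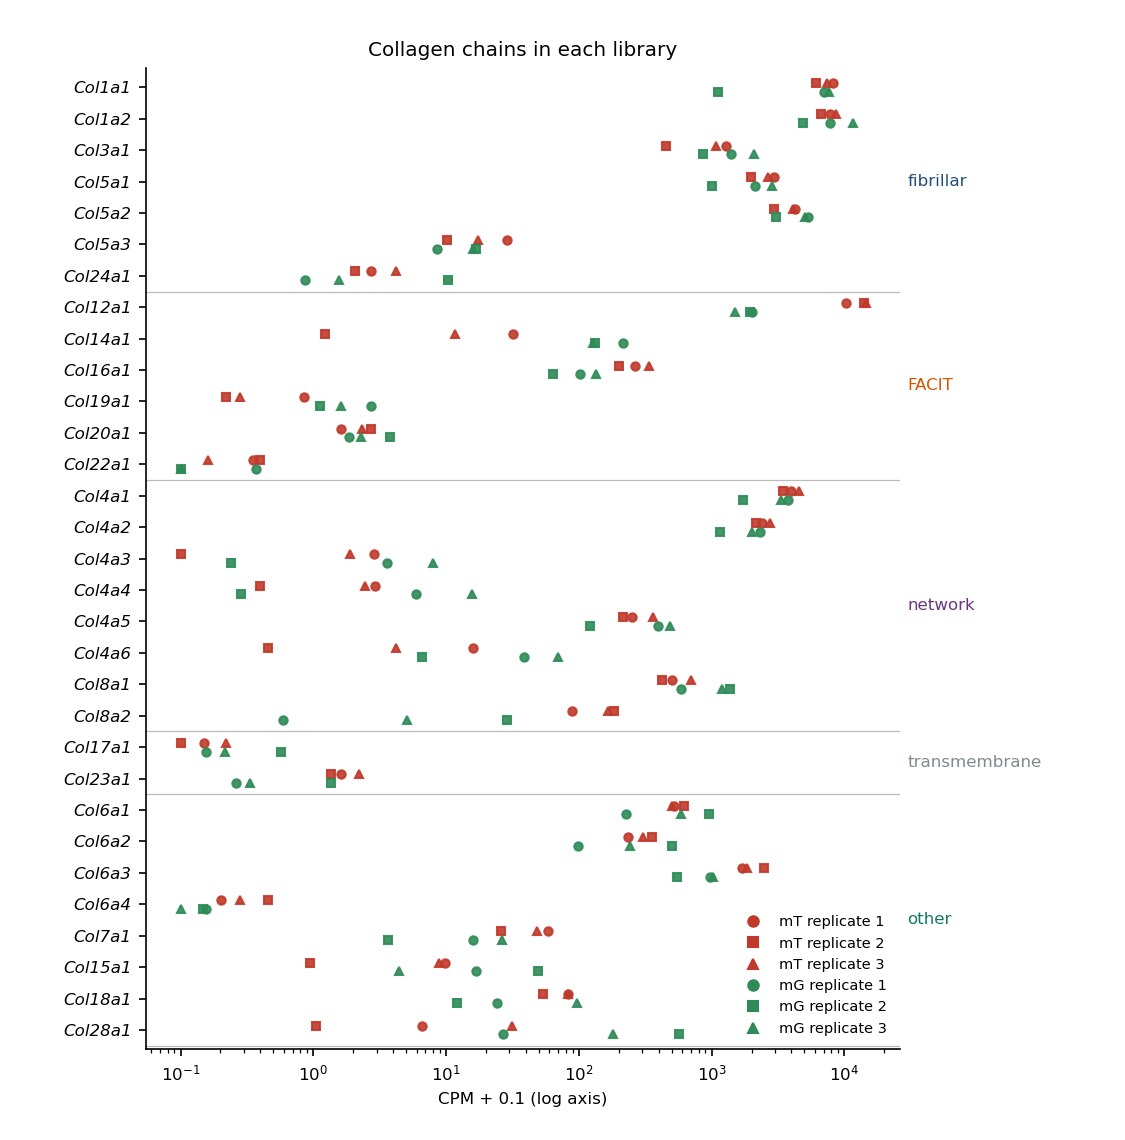
CPM plus 0.1 on a log axis (x) for all 31 collagen chains (y, by class) in 3 mT libraries (red) and 3 mG libraries (green), with a symbol per replicate. Col12a1 lies at 10336 to 14499 CPM in mT and 1499 to 2000 CPM in mG, while Col1a1 and Col1a2 overlap.

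The chain called by edgeR's quasi-likelihood test was that of type XII collagen, lower in mG. Col12a1 on chromosome 9, which encodes the homotrimeric FACIT chain that links fibrils to the surrounding matrix, had 10336, 14078 and 14499 CPM in mT replicates 1 to 3 and 2000, 1937 and 1499 CPM in mG. Every mT library was more than 5 times every mG library. The means were 12971 ± 2292 and 1812 ± 273 CPM (SD, n = 3 each), 7.16-fold lower in mG, which on the log2 scale is -2.84 ± 0.35 (SE), and edgeR's quasi-likelihood test gave adjusted p = 0.028. The call was lost with the replicate block (adjusted p = 0.0803), although within the numbered pairs mT exceeded mG by 5.17, 7.27 and 9.67 times. It was also lost when mT replicates 1, 2 or 3 or mG replicates 1 or 3 were left out (adjusted p = 0.0756, 0.111, 0.146, 0.0931 and 0.12), with log2 fold changes from -2.98 to -2.72. Without mG replicate 2 it held at adjusted p = 0.0243. Since these are bulk samples, fewer cells of a type and less RNA per cell cannot be told apart.

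The weight of this gene among collagens was large in mT. Col12a1 made up 1.05%, 1.4% and 1.43% of all counts in mT and 0.192%, 0.22% and 0.139% in mG. Among counts of members it took 28.3 ± 5.08% in mT and 6.37 ± 2.99% in mG. Per kilobase of the longest GENCODE M21 transcript it reached 1127 ± 199 CPM in mT, behind only Col1a2 and Col1a1 of the 31 members, and 157 ± 23.7 CPM in mG, where it had rank 9.

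The other FACIT chains had values in both directions. Col16a1 on chromosome 4, whose product associates with small fibrils, had 267, 202 and 338 CPM in mT and 103, 63.9 and 135 CPM in mG, without overlap. On the log2 scale it differed by -1.42 ± 0.32 (adjusted p = 0.121), and with the replicate block by -1.45 ± 0.15 (adjusted p = 0.0453), since mT exceeded mG by 2.59, 3.16 and 2.51 times within pairs. Col14a1 on chromosome 15, the close relative of type XII that regulates fibril growth, had 32, 1.14 and 11.7 CPM in mT and 214, 133 and 127 CPM in mG. All mG libraries stood above all mT libraries, but the mT values spread over more than an order of magnitude, and mT replicate 2 held only 19 counts against 632 in mT replicate 1. The log2 fold change of 3.4 ± 1 had adjusted p = 0.2, and 0.13 with the block.

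Rarer FACIT chains had low counts, and 3 counts, taken as the limit of detection, correspond to 0.154 to 0.178 CPM (a floor that covers counting error only). Near that limit were Col22a1, and Col19a1 in mT replicates 2 and 3. Col19a1, found in embryonic muscle, had 15, 2 and 3 counts in mT and 48, 22 and 26 in mG, with adjusted p = 0.259. Col20a1 had 30 to 44 counts in mT and 32 to 79 in mG. Col22a1, of tissue junctions, had 0 to 5 counts per library and was not tested. In all, 1 of 5 tested FACIT chains passed in edgeR's test (0.914% of all genes did), and the class had a median log2 fold change of 0.26. DESeq2 called Col12a1, Col14a1 and Col16a1 among them, against 7.31% of all genes.

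**Figure D2:**
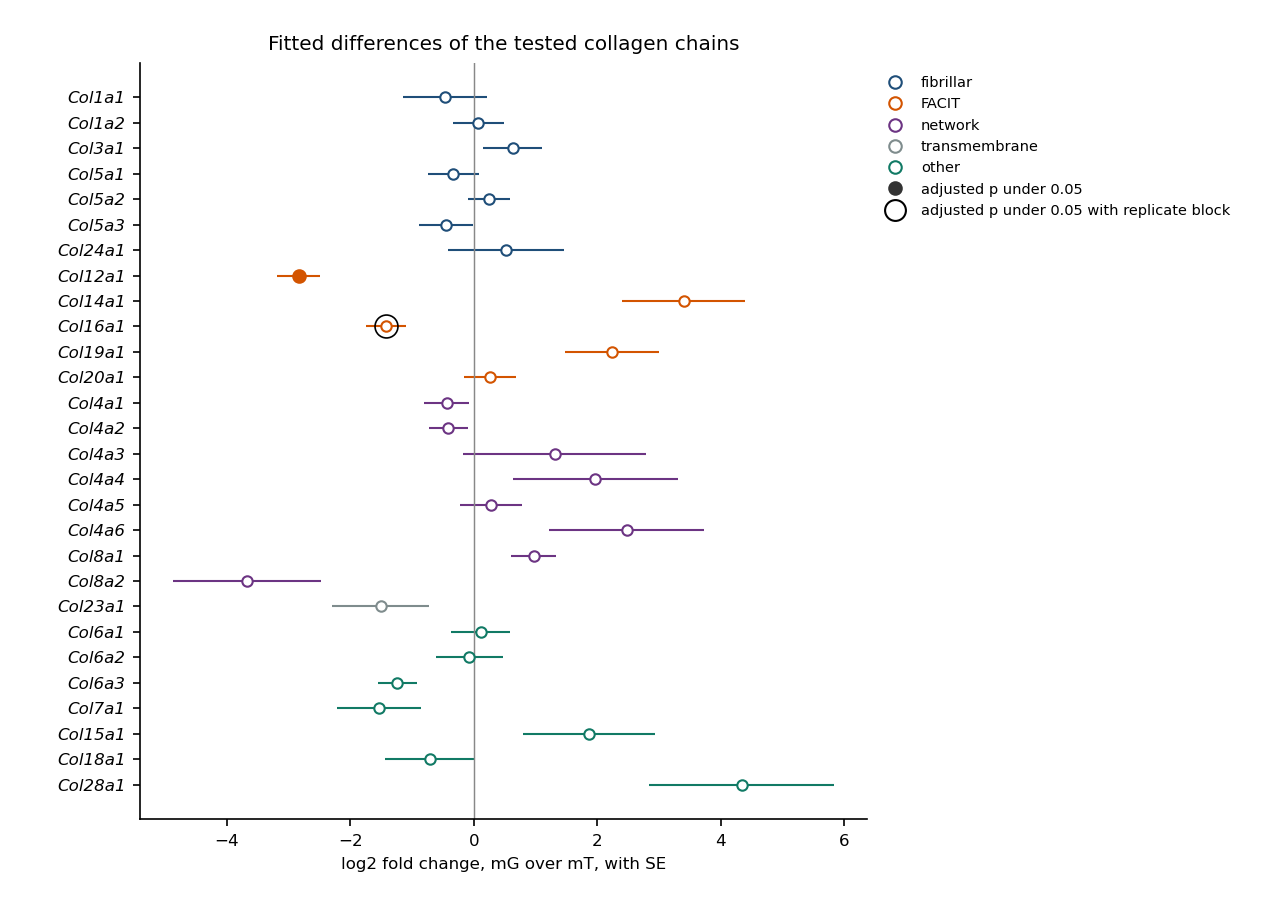
Log2 fold change of mG over mT with its standard error (x) for the 28 tested chains (y), coloured by class, with 3 libraries per group. The filled point marks the chain with adjusted p under 0.05 (Col12a1) and the ringed point the one under 0.05 with the replicate block (Col16a1).

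None of the 7 fibrillar chains passed in edgeR's test (0.914% of all genes did), and 0 were below an unadjusted p of 0.05 (14.6% of all genes were). DESeq2 called 0 of them, against 7.31% of all genes. Their log2 fold changes ran from -0.46 to 0.63, with a median of 0.07. Type I chains form the bulk of fibrils as a trimer with Col1a1 in excess over Col1a2. Col1a2 had 7852, 6710 and 8716 CPM in mT and 7857, 4885 and 11656 CPM in mG. Col1a1 had 8274, 6160 and 7391 CPM in mT and 7038, 1120 and 7666 CPM in mG, so that mG replicate 2 was far below the other 5 libraries, which lay close together. On the log2 scale it differed by -0.46 ± 0.68 (adjusted p = 0.847), and by 0.0027 without that library.

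Col3a1, which encodes the homotrimeric collagen of compliant tissues, had 1275, 457 and 1085 CPM in mT and 1408, 857 and 2101 CPM in mG, higher in mG within all 3 pairs but with overlapping groups (log2 fold change 0.63 ± 0.48, adjusted p = 0.637). Type V chains lie in the core of type I fibrils and control their diameter. Col5a2 had 4220, 2957 and 4139 CPM in mT and 5296, 3055 and 5058 CPM in mG, and Col5a1 had 2935, 1982 and 2646 against 2109, 1009 and 2863 CPM. Both overlapped between groups, with log2 fold changes of 0.25 ± 0.34 and -0.34 ± 0.41 and adjusted p of 0.831 and 0.799. The remaining type V chain, Col5a3, had 28.7, 10.1 and 17.3 CPM in mT and 8.44, 16.6 and 15.8 CPM in mG (adjusted p = 0.725), and per kilobase its level in mT was 3.06 CPM against 569 CPM for Col5a2. Col24a1, a fibrillar chain of developing bone and cornea, had 33 to 69 counts in mT and 14, 219 and 25 in mG, highest in mG replicate 2.

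Per kilobase of the longest transcript, the level of Col1a2 was 1451 ± 188 CPM in mT and 1521 ± 635 in mG, and that of Col1a1 1227 ± 179 and 890 ± 609, so neither the chains nor the groups were separated beyond their spread. In mT the next levels were those of Col12a1, Col4a1 (604 ± 85.6), Col5a2 (569 ± 107) and Col4a2 (378 ± 46), of which Col4a1 and Col5a2 lay within each other's spread. In mG Col5a2 (675 ± 186), Col4a1 (445 ± 162) and Col4a2 (283 ± 92.9) followed Col1a1. The deposited RPKM gave another order of the 2 type I chains, with Col1a1 at 972 ± 142 RPKM and Col1a2 at 405 ± 53.9 RPKM in mT. The gene lengths listed in the table exceed the longest GENCODE M21 transcript by 1.08 times (Col8a2) to 5.16 times (Col16a1), and the length listed for Col1a2 is 18407 bases against 5348.

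Among 8 network chains none passed in edgeR's or DESeq2's test (0.914% and 7.31% of all genes did). Below an unadjusted p of 0.05 in edgeR's test were 1 higher (Col8a1) and 1 lower chain (Col8a2), against 7.7% and 6.88% of all genes. Basement membrane type IV collagen is mostly the trimer of Col4a1 and Col4a2. Col4a1 had 3939, 3459 and 4587 CPM in mT and 3744, 1723 and 3363 CPM in mG (log2 fold change -0.44 ± 0.36, adjusted p = 0.671). Col4a2 had 2382, 2177 and 2762 CPM in mT and 2318, 1159 and 2000 CPM in mG (-0.42 ± 0.32, adjusted p = 0.636). Both had their lowest value in mG replicate 2 and were lower in mG within each pair.

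The minor type IV chains varied widely among libraries of one group. Col4a5, which joins either of the minor trimers, had 252, 214 and 364 CPM in mT and 396, 122 and 487 CPM in mG. Col4a6, its partner in smooth muscle basement membrane, had 15.9, 0.359 and 4.13 CPM in mT and 38.8, 6.5 and 69 CPM in mG, higher in mG within each pair (2.44, 18.1 and 16.7 times) but overlapping, with log2 fold change 2.48 ± 1.26 and adjusted p = 0.431, or 0.147 with the block. Col4a3 and Col4a4, the partners of Col4a5 in alveolar and glomerular membranes, had 0 to 64 and 4 to 107 counts in 5 libraries and 133 and 263 counts in mG replicate 3. That library also held the most of the 2 mesothelial markers found of 4, with a sum of 58 CPM against 4.3 to 10.8 CPM in the others, and 918 counts of Msln. Of 8 endothelial markers 6 were found, with sums of 52.5, 0.478 and 12.3 CPM in mT and 1.59 to 6.97 CPM in mG, and Pecam1 had no count in mT replicate 2, mG replicate 1 and mG replicate 3. The part of these cell types in the type IV levels was not tested.

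Type VIII chains, which are made by smooth muscle, endothelium and remodelling stroma, had values in opposite directions. Col8a2, whose promoter is shown above, had 89.4, 183 and 165 CPM in mT and 0.49, 28.6 and 4.94 CPM in mG, without overlap. In counts the mG values were 9, 611 and 84, so mG replicate 2 carried most of them. The log2 fold change of -3.67 ± 1.2 had adjusted p = 0.242, or 0.121 with the block, and without mG replicate 2 it was -5.77 ± 0.93 with adjusted p = 0.0442. Col8a1 had 499, 425 and 694 CPM in mT and 593, 1385 and 1192 CPM in mG, higher in mG within all 3 pairs, with log2 fold change 0.97 ± 0.36 and adjusted p = 0.299. Of 6 smooth muscle markers all were found, with sums of 7140 to 10968 CPM in mT and 2007 to 14904 CPM in mG, lowest in mG replicate 2. Their part in the type VIII levels was not tested.

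The transmembrane and unclassed chains held 8 tested members, of which edgeR's test called 0 (0.914% of all genes). DESeq2, which called 7.31% of all genes, called Col6a3 (adjusted p = 0.00292) and Col28a1 (0.0477) among them. Type VI collagen forms beaded filaments around cells from Col6a1, Col6a2 and a longer chain such as Col6a3. Col6a3 had 1706, 2492 and 1845 CPM in mT and 974, 551 and 1026 CPM in mG, without overlap and 2.37-fold lower in mG (log2 fold change -1.24 ± 0.32, adjusted p = 0.152, or 0.209 with the block). Col6a1 had 517, 620 and 505 CPM in mT and 226, 959 and 589 CPM in mG, and Col6a2 had 234, 357 and 302 against 99.1, 504 and 244 CPM. In both, mG replicate 1 was the lowest and mG replicate 2 the highest of the 6 libraries, and adjusted p was 0.959 and 0.978. Col6a4, which takes the place of Col6a3 in some trimers of mouse, had 0 to 6 counts.

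Col28a1 on chromosome 6, a chain with von Willebrand factor A domains known around Schwann cells of mouse nerves, had 6.53, 0.957 and 31.2 CPM in mT and 27, 572 and 182 CPM in mG. The groups overlapped, and mG replicate 2 alone held 12235 of the 15822 mG counts. The difference was 4.34 ± 1.49 on the log2 scale (adjusted p = 0.263). It was 3.00 without mG replicate 2 (adjusted p = 0.27), 2.45 without both replicate 2 libraries and 6.11 without mT replicate 3. The chondrocyte markers, which summed to 950 CPM in mG replicate 2, were at 12.3 and 11.8 CPM in the other mG libraries, and their part in the level of Col28a1 was not tested.

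Col7a1, the anchoring fibril chain of epithelial basement membranes, had 58.8, 26 and 48.7 CPM in mT and 16, 3.56 and 26.4 CPM in mG, lower within each pair with adjusted p = 0.365. The multiplexins, which are basement membrane collagens that carry heparan or chondroitin sulphate, had values in both directions. Col15a1 had 14 to 192 counts in mT and 305, 1054 and 74 in mG (adjusted p = 0.491), and Col18a1, the source of endostatin, had 895 to 1624 counts in mT and 446, 257 and 1650 in mG (adjusted p = 0.743). Of the transmembrane chains Col23a1 had 1.52, 1.26 and 2.09 CPM in mT and 0.163, 1.26 and 0.235 CPM in mG (adjusted p = 0.44), and Col17a1, the hemidesmosome chain of epithelium, had 0 to 2 counts in 5 libraries and 10 in mG replicate 2.

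Members together made up 4.58%, 4.22% and 4.96% of counts in mT and 3.31%, 2.28% and 3.74% in mG. All mT libraries lay above all mG libraries, a difference of -1.48 percentage points with p = 0.1 in an exact two-sided permutation test, the smallest p that 3 against 3 libraries allow (0.3 adjusted over 6 shares). Of that difference in counts -1.11 points were the FACIT class, at 1.32 ± 0.21% in mT and 0.209 ± 0.041% in mG, likewise with exact p = 0.1 and 0.3 adjusted. As shares of summed RPKM, which are per listed length, the differences were -0.415 points for all members (exact p = 0.2, so the groups overlapped) and -0.211 points for FACIT chains (exact p = 0.1). Members other than Col12a1 took 3.29 ± 0.4% in mT and 2.93 ± 0.79% in mG, with overlapping groups. The fibrillar share was 2.23 ± 0.36% and 2.08 ± 0.76% (exact p = 0.8), and the network share 0.739 ± 0.103% and 0.614 ± 0.098% (exact p = 0.3). Without mG replicate 2 the fibrillar difference turned from -0.15 to 0.27 percentage points.

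**Figure D3:**
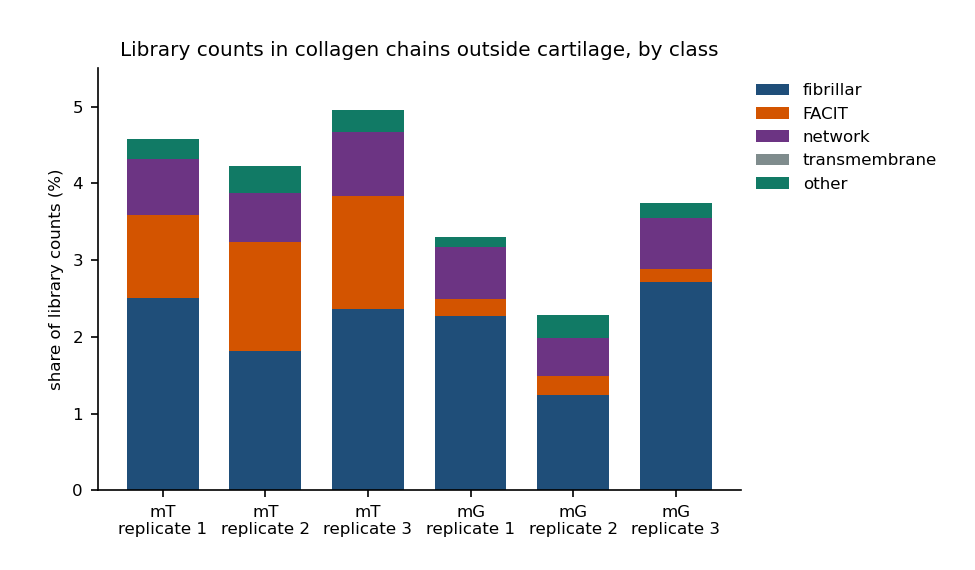
Share of all counts of a library in percent (y, stacked from 0) taken by each class of collagen chains outside cartilage, for 3 mT and 3 mG libraries (x). The FACIT segment is 1.08% to 1.46% in mT and 0.163% to 0.242% in mG, and the transmembrane segment is too thin to see.

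Ratios of chains within a library do not depend on library scaling, and 13 of them were compared, each with a smallest possible exact p of 0.1. Of the 13, the ratio of the head-to-head pair Col4a1 and Col4a2 varied least, with log2 values of 0.73, 0.67 and 0.73 in mT and 0.69, 0.57 and 0.75 in mG, a range of 0.18 over all 6 libraries. Col6a1 and Col6a2 followed with a range of 0.53. The other head-to-head pairs were less steady, as the log2 ratio of Col4a5 to Col4a6 ran from 2.82 to 9.1 and that of Col4a3 to Col4a4 from -3.46 (with no count of Col4a3 in mT replicate 2) to -0.03. The pairs were compared at unlike depth, since Col4a6 had 6 counts in mT replicate 2 and Col4a2 at least 24768 in every library.

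In 4 of the 13 ratios the groups did not overlap, each with exact p = 0.1 and 0.325 adjusted over 13. The log2 ratio of Col12a1 to Col14a1 was 8.34, 13.6 and 10.3 in mT and 3.22, 3.87 and 3.56 in mG, a difference of -7.17. That of Col8a1 to Col8a2 was 2.48, 1.22 and 2.08 in mT and 10.2, 5.6 and 7.9 in mG, a difference of 5.96. Col5a1 to Col5a2 was nearly constant in mT at -0.52, -0.58 and -0.65 and lower in mG at -1.33, -1.6 and -0.82. Col3a1 to Col1a1 was -2.7, -3.75 and -2.77 in mT and -2.32, -0.39 and -1.87 in mG, so that every mG library had more type III per type I chain.

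Col1a1 to Col1a2 was 0.08, -0.12 and -0.24 in mT and -0.16, -2.13 and -0.6 in mG (exact p = 0.2). The outlying value was that of mG replicate 2, in which Col2a1, the main chain of cartilage fibrils, reached 2714 CPM against 0.708 to 28.6 CPM in the other 5 libraries. In the same library Col6a3 to Col6a1 was -0.8, against 0.8 to 2.11 elsewhere. Whether its cartilage transcripts account for these ratios was not tested.

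**Figure D4:**
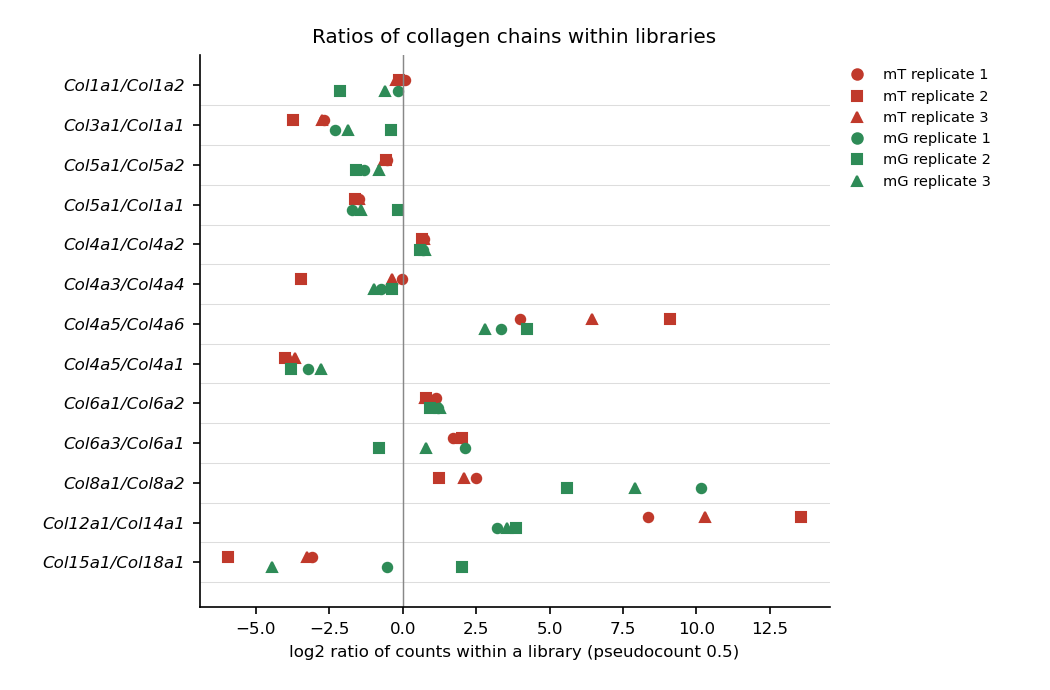
Log2 ratio of the counts of 2 collagen chains within a library (x, pseudocount 0.5) for 13 pairs (y) in 3 mT libraries (red) and 3 mG libraries (green). The ratio of Col4a1 to Col4a2 spans 0.18 over the 6 libraries, and the groups do not overlap for Col3a1/Col1a1, Col5a1/Col5a2, Col8a1/Col8a2 and Col12a1/Col14a1.

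Genes that act on collagen were read in 2 lists. Of 33 biosynthesis genes (hydroxylases, chaperones, proteinases, lysyl oxidases and export factors) 31 were tested and 1 passed, lower in mG, where 0.914% of all genes passed, with a median log2 fold change of 0.03 against 0.02 over all genes. It was Pcolce2, which encodes an enhancer of procollagen C-proteinase and had 18.2, 36.7 and 19.2 CPM in mT and 3.32, 4.54 and 2.24 CPM in mG (log2 fold change -2.87 ± 0.4, adjusted p = 0.04, or 0.0317 with the block). Its call was lost without mT replicates 1, 2 or 3 or mG replicates 1 or 3 (adjusted p = 0.081, 0.109, 0.127, 0.0967 and 0.121) without both replicate 2 libraries (0.0523) and with limma-voom (0.0727). Tent5a, a poly(A) polymerase that stabilises collagen transcripts in mouse bone, had 8.14, 4.6 and 5.63 CPM in mT and 20.8, 17 and 23 CPM in mG, without overlap, with adjusted p = 0.0533. It passed with DESeq2 (adjusted p = 1.64e-06), with 1 factor of unwanted variation (0.0341) and without mG replicate 2 (0.0384). Plod2, a lysyl hydroxylase of collagen telopeptides, had 515, 198 and 354 against 411, 775 and 800 CPM (adjusted p = 0.387).

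Of 10 collagen receptor genes 8 were tested, none passed in edgeR's test (0.914% of all genes did), 1 was below an unadjusted p of 0.05 (14.6% of all genes were), and the median log2 fold change was 0.29. Ddr2, a receptor tyrosine kinase for fibrillar collagen, had 525, 636 and 626 CPM in mT and 343, 306 and 445 CPM in mG, without overlap, with adjusted p = 0.189 (DESeq2 0.0212). Its relative Ddr1 had 135, 150 and 175 against 175, 176 and 215 CPM, and Itga2, the alpha subunit of a collagen-binding integrin, had 7.69, 5.92 and 7.3 against 27.4, 3.37 and 7.95 CPM, with adjusted p of 0.463 and 0.658. Of the cartilage collagens left out of the members, Col11a1, which also enters type V fibrils, had 844, 381 and 537 CPM in mT and 1615, 1433 and 1861 CPM in mG, without overlap and with adjusted p = 0.119.

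In the authors' deposited table, which rests on a likelihood-ratio statistic, 6 of the 31 members have an adjusted p below 0.05, as do 6.05% of its 20645 rows (3.19% higher and 2.86% lower). Those higher in mG are Col14a1, Col19a1 and Col28a1 in the authors' deposited table, with adjusted p of 0.00398, 0.0172 and 0.00626. Those lower in the authors' deposited table are Col12a1, Col16a1 and Col8a2, with 4.15e-10, 0.0273 and 0.00762. All 6 were below an unadjusted p of 0.05 in the quasi-likelihood test here, as were Col6a3 and Col8a1. The authors' table also gives an adjusted p for members that the filter on low counts left out here. Its label names upper-quartile normalization and RUV (removal of unwanted variation), so more than the statistic differs between its calls and those made here.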

How the data were processed

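RNA was extracted from lung MSC and made into libraries without strand, as the labels' protocols state. STAR, Trimmomatic 0.38, cutadapt 5.0, FastQC 0.11.9 and edgeR 4.0 appear in the submitters' processing notes. For the counter, the build and the annotation, each is not given in the sources used here. In GENCODE M21, 7 members share exon bases with a gene on the other strand and 3 with one on the same strand, at most 5.65% of a member's exon bases (Col4a3), and such reads cannot be told apart.

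The authors deposited whole-number counts per gene and library, per the file headers. Their deposited RPKM divide counts by the listed length and 1 constant per library, in every row with at least 10 counts within 0.1%. The deposited TMM columns hold a signal scaled to a common total and were not used. The authors' log2 fold changes, p-values and adjusted p-values are quoted only as deposited. Their likelihood-ratio score and −log10 p columns, also deposited, were not used.

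Columns were matched to samples by library name. The 36 rows without a gene name (0.013% to 0.035% of counts) were left out. Counts were fitted in R 4.3.3 with the quasi-likelihood functions of edgeR 4.0.16 (TMM factors, filterByExpr with a minimum count of 10), adjusted over 13560 genes. The method was tested on simulated data of independent libraries, which held no replicate effect and no outlying library. The standard error is the log2 fold change over the square root of F. Shares and ratios (pseudocount 0.5) were tested by exact permutation over samples in scipy 1.17.1. Depths limit precision for chains below about 10 counts.

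Replicate numbers occur in both groups. Deviations from the group mean correlated between same-numbered libraries at 0.288, 0.18 and 0.349, so a fit with the number as a block was added. Fold differences within numbered pairs are given for some genes. The main fit and the exact permutation tests did not use the pairing, so their p-values ignore it. The pairing rests on the data alone, as no label defines the numbers. The blocked value stands beside a result whose call it changes.

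Members with a call in either fit, and up to 3 per class with the highest CPM and up to 3 with the smallest p, are described in every library, the rest by range. Further chains, the without-library values and Col11a1 were added after their values were seen. Members, lists and tests were chosen with earlier results of these data known. Alternatives were RLE and upper-quartile scaling, other filters, DESeq2 1.42.0, limma-voom 3.58.1, the block, 1 factor of unwanted variation, each library left out, RPKM shares and a pseudocount of 1. Leaving out both replicate 2 libraries, and lengths from GENCODE M21, were added after seeing the data. The marker list of 1 further cell type is not reported here.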

Additional observations from a re-analysis of the deposited data

How the results depend on the processing

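The count of 1 member called became 5 with DESeq2 (Col12a1, Col14a1, Col16a1, Col28a1 and Col6a3, against 7.31% of genes), 2 with 1 factor of unwanted variation (Col12a1 and Col8a2, against 3.56%), 0 without both replicate 2 libraries and 0 to 2 with each library left out, and the cause was not tested. Over all genes the counts were 987, 483, 46 and 20 to 362. With RLE or upper-quartile scaling, both other filters and limma-voom it was 1, Col12a1 (against 0.655% to 0.98% of genes), and with the block 1, Col16a1. The block changed no other call of a named member. The median over members, 0.089 in the main fit, was -0.23 with the block and -0.145 without both replicate 2 libraries. It ran from -0.0794 to 0.125 with each library left out. Col23a1, the only tested transmembrane chain, had -1.92 with the block, -3.15 without both replicate 2 libraries and -3 to -1.09 with each library left out.

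Some differences, none of them called, changed sign. With each library left out the median log2 fold change ran from -0.283 to 0.164 for fibrillar chains. It ran from -0.124 to 0.472 for FACIT chains and from -0.446 to 0.328 for unclassed chains. The fibrillar median was -0.369 with the block. The fibrillar share was 0.0607 percentage points without both replicate 2 libraries and -0.472 to 0.267 with each left out, and the share of the unclassed chains 0.0146 by RPKM. Without both replicate 2 libraries the log2 ratios of Col5a1/Col1a1 and Col4a3/Col4a4 differed by -0.0914 and -0.66, and with each left out by -0.0422 to 0.752 and -0.494 to 1.22, and that of Col4a1/Col4a2 by -0.0767 to 0.0122. With each library left out log2 fold changes ran from -0.83 to 0.00265 for Col1a1, -0.283 to 0.316 for Col1a2 (-0.0124 with the block), -0.446 to 0.498 for Col6a1, -0.812 to 0.328 for Col6a2 and -0.303 to 1.34 for Itga2. Col6a1 was -0.133 with limma-voom, -0.105 with the block, -0.0594 with 1 factor of unwanted variation and -0.349 without both replicate 2 libraries. With replicate numbers as pairs no share or ratio can go below an exact p of 0.25. With no filter on low counts Col17a1, Col22a1 and Col6a4 were fitted too and were not called. At 10 or fewer counts per library, depth limits what could be detected in them.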
